A study of Mus musculus with 4 samples.

Results

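The Dlk1-Dio3 domain is an imprinted stretch of distal mouse chromosome 12, described here through 6 genes: the noncoding RNA genes Meg3, Rian and Mirg and the protein-coding genes Dlk1, Rtl1 and Dio3. The members are the 6 rows, of 55401 gene identifiers listed, whose Ensembl identifier carries one of these symbols in the GRCm38 annotation GENCODE vM21; each symbol matched 1 identifier. They were measured by messenger RNA sequencing in 4 libraries of EB3, an established line of mouse embryonic stem cells grown on gelatin with the cytokine LIF. NUP98-HOXA9 libraries, replicates 1 and 2, came from EB3-derived cells with the genotype NUP98-HOXA9, a leukaemia fusion that joins a nucleoporin to the homeodomain of a HOX factor. The wild-type group was 1 library of the parental line (genotype WT) and 1 of EB3-derived cells with an empty vector, and all cells were grown under the same stated conditions. The labels do not name the promoter that drives the fusion or its species, nor whether replicates are separate clones or cultures, so a p-value covers only how these 4 libraries vary, which may be technical.

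In the mouse, Meg3, Rian and Mirg are known to be transcribed from the chromosome inherited from the mother, and Dlk1, Rtl1 and Dio3 mainly from the one inherited from the father. DNA methylation of a control region between Dlk1 and Meg3, set in the male germline, keeps the parental chromosomes apart. The noncoding RNAs carry clusters of microRNAs and small nucleolar RNAs, and pluripotent mouse cell lines are known to differ in whether these RNAs are made. The counts used here are summed over both parental chromosomes and carry no methylation reading.

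Libraries held 19820401 and 21151729 estimated counts with the fusion and 19957932 (parental) and 19021386 (empty vector) without it. Hoxa9 stood at 189 and 127 CPM (estimated counts scaled to depth, with the TMM method between libraries) in the NUP98-HOXA9 libraries and had 0 counts in both wild-type libraries, as the labels would have it, although reads of the construct and of the gene itself are not separated. Markers of embryonic stem cells were abundant in every library: 10 genes, among them Pou5f1, Nanog and Esrrb, summed to 6630 and 6400 CPM with the fusion and to 5340 (parental) and 6000 CPM (empty vector). The quasi-likelihood test of edgeR covered 16511 genes, of which 468 (2.83%) were higher and 96 (0.581%) lower in NUP98-HOXA9 cells at a Benjamini-Hochberg adjusted p under 0.05, 3.42% together. Leaving out fusion replicate 1 cut the total of 564 to 163, with 152 higher and 11 lower, and leaving out fusion replicate 2 gave 185 lower.

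The members lie in the order Dlk1, Meg3, Rtl1, Rian, Mirg, Dio3 over 828 kb (GRCm38, chr12:109452823-110281097). All are on the plus strand except Rtl1, which lies on the minus strand between Meg3 and Rian. Promoter sequences are shown for Meg3, whose RNA was lower with the fusion, and for Dlk1 and Dio3, which stood higher without passing the test. Each is the 250 bases before the RefSeq gene start (GRCm38.p6, plus strand, 5′ to 3′), with CG dinucleotides, the sites of DNA methylation, in capitals.
Meg3, chr12:109540746-109540995: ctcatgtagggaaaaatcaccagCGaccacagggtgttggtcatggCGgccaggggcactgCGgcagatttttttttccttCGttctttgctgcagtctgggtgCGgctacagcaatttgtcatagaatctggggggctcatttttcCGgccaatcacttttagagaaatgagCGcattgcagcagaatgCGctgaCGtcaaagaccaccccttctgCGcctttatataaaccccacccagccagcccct
Dlk1, chr12:109452573-109452822: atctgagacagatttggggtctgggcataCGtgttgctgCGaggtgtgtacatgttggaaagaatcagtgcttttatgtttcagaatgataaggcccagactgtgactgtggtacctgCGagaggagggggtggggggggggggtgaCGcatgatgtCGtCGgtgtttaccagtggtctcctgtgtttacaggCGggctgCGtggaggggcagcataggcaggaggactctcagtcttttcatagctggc
Dio3, chr12:110278980-110279229: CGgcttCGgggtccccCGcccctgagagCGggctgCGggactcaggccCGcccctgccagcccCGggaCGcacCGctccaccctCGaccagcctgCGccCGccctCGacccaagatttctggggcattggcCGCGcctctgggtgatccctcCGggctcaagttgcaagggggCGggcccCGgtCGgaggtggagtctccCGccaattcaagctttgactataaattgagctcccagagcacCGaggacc

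The Meg3 window held 10 CG dinucleotides, the Dlk1 window 8 and the Dio3 window 21, against a median of 6 over 32851 windows of the same length. As many as in Dio3 were found in 16.3% of all windows, as many as in Meg3 in 37.8%. The Mirg window held 10 and the Rian window 0, and no window was listed for Rtl1. RefSeq and GENCODE starts differ: the Mirg window (chr12:109734731-109734980) lies within the GENCODE gene, over the microRNA hairpins Mir668 and Mir485. It therefore does not precede the start of the measured Mirg gene. The Dio3 window runs past the GENCODE start of Dio3 (110279068). RefSeq lists a second Meg3 start, whose window (chr12:109545148-109545397) held 0 CG dinucleotides and none of the sequence words searched for; the Meg3 values given are those of the window shown. The cyclic AMP response element TGACGTCA, searched on both strands, began 57 bases before the Meg3 start and is found in 1.55% of windows; it was added after its TGACG core (17.8% of windows) had been seen on both strands there. Dlk1 held that core alone, 106 bases before its start. A TATA box (TATAAA, 12.4% of windows) began 25 bases before the Meg3 start, overlapping its reverse match at 29 bases, and 31 bases before that of Dio3. TGCCGC, a word bound by the imprint-keeping factor ZFP57 when methylated, matched the reverse strand of the Meg3 window 190 bases before the start (8.68% of windows). The words bound by posterior HOX factors, TTTATGG (2.43%) and TTTACGG (0.804%), matched none of the windows of the members. These matches describe letters only.

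The 3 noncoding RNAs fell in NUP98-HOXA9 cells: wild-type levels were 4.29-fold (Meg3), 4.62-fold (Rian) and 3.93-fold (Mirg) those with the fusion. Dlk1, Dio3 and Rtl1 had more counts with the fusion, without passing the test or, for Rtl1, without entering it. Meg3 (ENSMUSG00000021268, chr12:109541001-109571726, 11 annotated transcripts) encodes a long noncoding RNA known as the marker of an active maternal copy of the domain. It stood at 80.3 and 69.4 CPM in the NUP98-HOXA9 libraries, against 297 (parental) and 346 CPM (empty vector) in wild-type cells. Per length, its level was 90.27 and 82.84 TPM (abundance scaled to transcript length and to the library) with the fusion, against 299.16 and 362.89 TPM. Both fusion libraries lay far below both controls, and the 2 libraries of each group differed by 1.16-fold. Meg3 fell by 2.10 on the log2 scale (SE 0.19, adjusted p = 0.00844, edgeR). In bulk RNA, fewer cells that make an RNA and less of it per cell cannot be told apart.

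Rian (ENSMUSG00000097451, chr12:109603940-109661716, 69 annotated transcripts) is a host of box C/D small nucleolar RNAs of the domain, some of which are annotated beyond its end. It measured 87.3 and 79.3 CPM with the fusion, against 359 (parental) and 411 CPM (empty vector). Rian fell by 2.21 on the log2 scale (SE 0.18, adjusted p = 0.00642, edgeR). Among all tested genes with a negative fold change it ranked 1 by p-value, and Meg3 ranked 2. Mirg (ENSMUSG00000097391, chr12:109729764-109749460, 12 transcripts), a host of microRNAs in the distal part of the domain, stood at 9.16 and 6.47 CPM with the fusion, against 27.4 (parental) and 34 CPM (empty vector). It fell by 1.97 on the log2 scale (SE 0.29, adjusted p = 0.023, edgeR). Its call was lost without fusion replicate 1 (adjusted p = 0.0549) or replicate 2 (adjusted p = 0.0538), and against the parental (adjusted p = 0.0752) or empty-vector library alone (adjusted p = 0.0551).

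So 3 of the 5 tested members passed, all lower, where 0.581% of tested genes were called lower. The noncoding members kept close proportions. Rian stood at 0.852 and 0.897 of the TPM of Meg3 with the fusion, against 0.986 (parental) and 0.983 (empty vector). Mirg stood at 0.205 and 0.145 of Meg3 with the fusion, against 0.176 and 0.184. The ratio of Mirg to Meg3 in the controls thus lay between those of the fusion libraries, while the ratio of Rian to Meg3 was somewhat lower with the fusion. Among 55401 listed genes ranked by TPM, Meg3 ranked 1806 and 1884 in the NUP98-HOXA9 libraries and 432 and 360 in the parental and empty-vector libraries. Meg3, Rian and Mirg together took 0.0178% and 0.0161% of all counts with the fusion, against 0.0658% and 0.0785%.

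**Figure D1:**
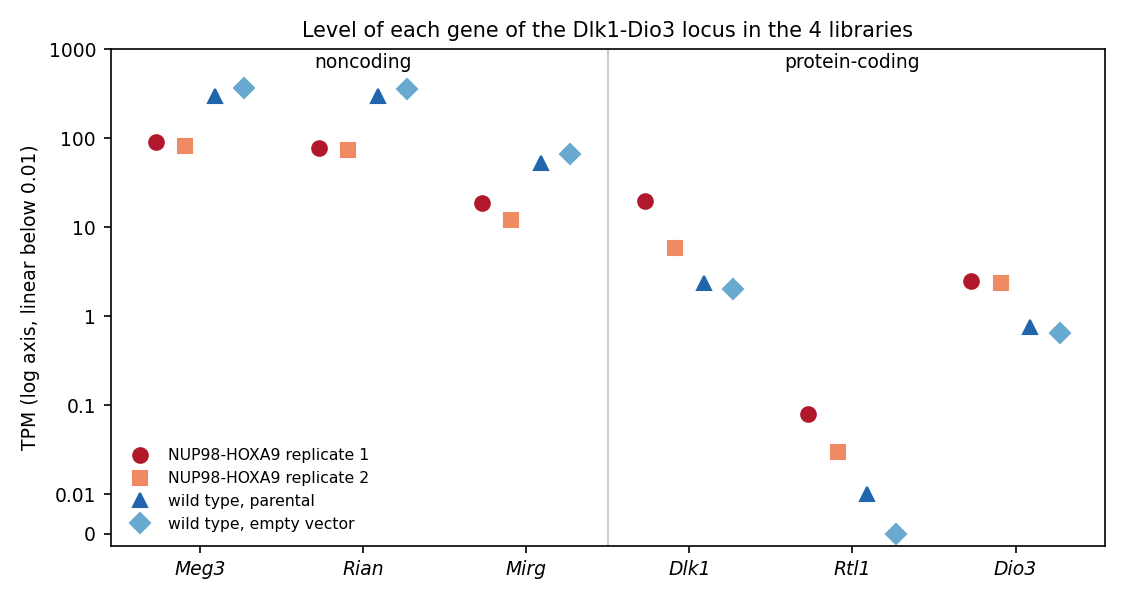
TPM of each member (log axis, linear below 0.01) in the 2 NUP98-HOXA9 libraries and the 2 wild-type libraries, 1 point per library. Both fusion libraries lie below both controls for Meg3, Rian and Mirg and above both for Dlk1, Rtl1 and Dio3.

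The protein-coding members lay on the other side of the controls. Dlk1 (ENSMUSG00000040856, chr12:109452823-109463336) encodes a membrane protein of the Delta family that lacks the domain by which canonical ligands activate Notch, and it is known for restraining fat cell differentiation. It stood at 18.8 and 5.1 CPM in the NUP98-HOXA9 libraries, against 2.65 (parental) and 1.96 CPM (empty vector). Replicate 1 was 3.69-fold above replicate 2, a wider gap than between the controls, and both were above them. At an adjusted p of 0.0943 (edgeR), its log2 fold change of 2.37 (SE 0.63) missed the threshold. Its size rested on replicate 1: without that library it was 1.14 (adjusted p = 0.422), and without replicate 2 it was 3.03 and passed (adjusted p = 0.0247). DESeq2's Wald test called it too (log2 2.36, adjusted p = 0.00257).

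Dio3 (ENSMUSG00000075707, chr12:110279068-110281097) encodes the type 3 deiodinase, the selenoenzyme that inactivates thyroid hormone. It measured 2.8 and 2.82 CPM with the fusion, from 56 and 62 counts, against 0.884 CPM (parental, 17 counts) and 0.689 CPM (empty vector, 13 counts). The fusion libraries were alike and both lay above the controls. At an adjusted p of 0.0836 (edgeR), the log2 fold change of 1.83 (SE 0.47) missed the threshold.

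Rtl1 (ENSMUSG00000085925, chr12:109589193-109600330, minus strand) is a retrotransposon-derived gene needed in the placenta. It had 7 and 3 counts in the NUP98-HOXA9 libraries, against 1 (parental) and 0 (empty vector), and was left out of the test by the filter on low counts. Summed counts of 10 against 1 gave a depth-scaled ratio of 9.09 (95% exact binomial interval 1.29 to 394, for counting error only), and TPM was at most 0.08. No source used here says whether counting used strand, so reads of Rtl1 and of the RNA transcribed across it on the other strand cannot be told apart.

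In all 6 members both fusion libraries lay on the same side of both controls, Rtl1 by a few counts. Such separation was common: it held for 51.3% of tested genes, 27.1% higher and 24.2% lower with the fusion. The noncoding members summed to 186 and 169 TPM with the fusion, against 647 (parental) and 786 TPM (empty vector). The coding members summed to 22.2 and 8.17 TPM, against 3.15 and 2.65 TPM. Noncoding RNA therefore exceeded coding RNA of the domain 8.37-fold and 20.7-fold with the fusion, and 205-fold and 297-fold in the parental and empty-vector libraries. Most of the gap between the fusion libraries came with Dlk1, whose TPM was 7.81 times that of Dio3 in replicate 1 and 2.46 times in replicate 2, against 3.19 and 3.08 times in the controls.

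**Figure D2:**
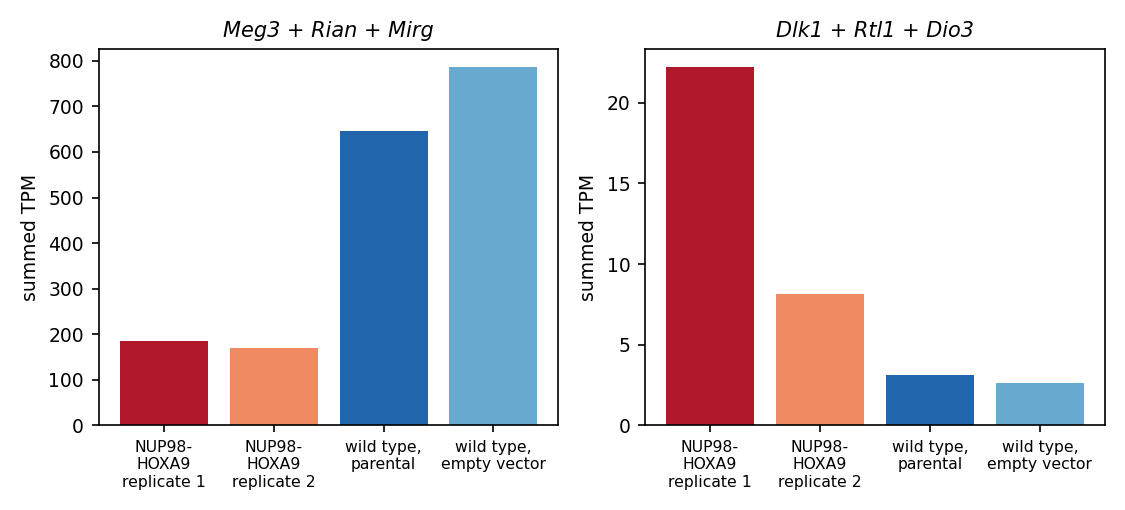
Summed TPM of the noncoding members (left) and the protein-coding members (right), 1 bar per library, on separate linear axes from 0. The noncoding sums are 186 and 169 TPM in the NUP98-HOXA9 libraries against 647 and 786 TPM in the wild-type libraries; the coding sums are 22.2 and 8.17 TPM against 3.15 and 2.65 TPM.

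By level per length, the order in wild-type cells was Meg3 and Rian, then Mirg, Dlk1, Dio3 and Rtl1. Meg3 (299.16 and 362.89 TPM) and Rian (294.96 and 356.57 TPM) did not differ there beyond the spread between libraries. With the fusion, Meg3 (90.27 and 82.84 TPM) lay just above Rian (76.89 and 74.28 TPM), and Mirg (18.52 and 12.05 TPM) and Dlk1 (19.6 and 5.79 TPM) overlapped. Against wild type, Mirg stood at 52.61 (parental) and 66.82 TPM (empty vector) and Dlk1 at 2.39 and 2.0 TPM. Dio3 had 2.51 and 2.35 TPM with the fusion and 0.75 and 0.65 TPM without it.

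Set against each control alone, in fits that share the fusion libraries, the members kept their direction. The spread in these fits comes from the fusion pair alone, and the lone control library is assumed to vary like it. Their p-values therefore do not measure how control libraries vary. Meg3 had log2 fold changes of -1.99 against the parental library (adjusted p = 0.02) and -2.21 against the empty vector (adjusted p = 0.0212, edgeR). Rian had -2.11 (adjusted p = 0.0141) and -2.30 (adjusted p = 0.0152, edgeR) in the same order. The fit against the parental library called 0.63% of genes, 0.509% higher and 0.121% lower. That against the empty vector called 0.497%, 0.388% higher and 0.109% lower. Dlk1 had 2.17 and 2.60, and Dio3 1.66 and 2.02, none past the test, with adjusted p between 0.224 and 0.331 (edgeR). Between the controls, the empty-vector library had 1.16 times the Meg3, 1.15 times the Rian and 1.24 times the Mirg of the parental library, and 0.739 times its Dlk1.

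**Figure D3:**
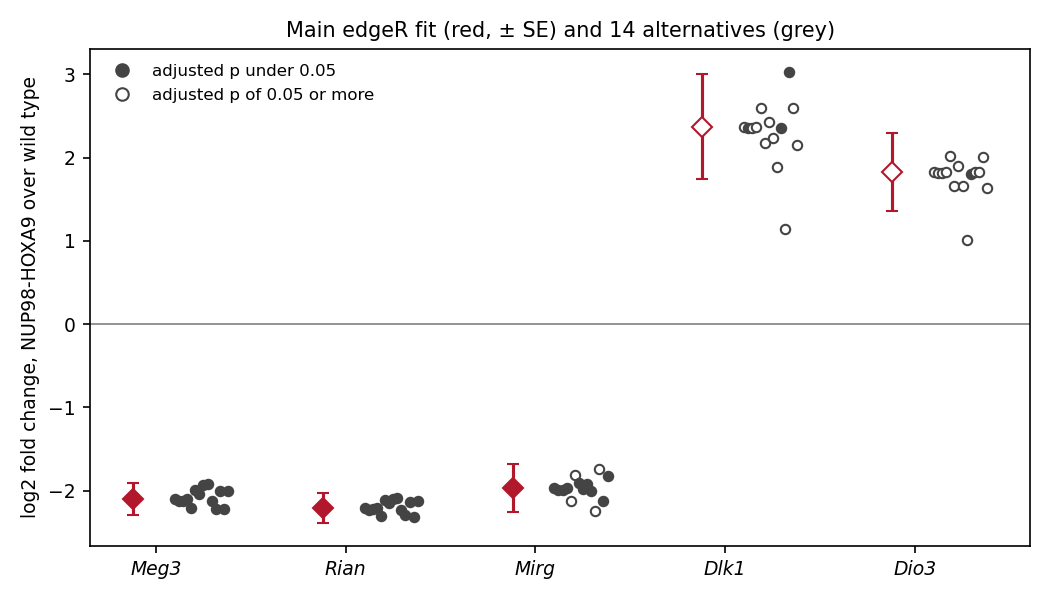
log2 fold change of NUP98-HOXA9 over wild type for the 5 tested members: the edgeR fit of all libraries (red diamonds, bars are ± SE) and its 14 alternatives (grey circles), filled where the adjusted p is under 0.05. Meg3 and Rian pass in all 14, from -2.22 to -1.92 and from -2.32 to -2.09; Dlk1 runs from 1.14 to 3.03.

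The domain's microRNAs were not measured by these libraries, which were made from polyadenylated RNA. The RefSeq table places 58 microRNA hairpins between Dlk1 and Dio3, 54 of them on the plus strand. Of the 58, 1 overlaps an exon of Meg3, 3 lie in introns of Rian, and 14 lie within Mirg (9 overlapping exons and 5 in introns). Rtl1 has 6 antisense to it and 1 that overlaps an exon on its own strand. The remaining 33 lie outside the 6 genes as annotated, so the levels of the members do not cover them. Mature sequences are shown for 1 microRNA in Meg3 (miR-770), 1 in Rian (miR-370) and 2 in Mirg (miR-134 and miR-410), the hosts that were lower with the fusion, and for 6 antisense to Rtl1. They are written 5′ to 3′ from RefSeq (GRCm38.p6), with the seed (bases 2 to 8) in capitals, and no seed occurs more than once among them.
mmu-miR-770-5p: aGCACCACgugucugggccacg
mmu-miR-431-5p: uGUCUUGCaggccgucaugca
mmu-miR-433-3p: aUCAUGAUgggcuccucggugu
mmu-miR-127-3p: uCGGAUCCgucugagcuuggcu
mmu-miR-434-3p: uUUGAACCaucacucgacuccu
mmu-miR-432: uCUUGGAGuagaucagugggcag
mmu-miR-136-5p: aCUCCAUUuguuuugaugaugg
mmu-miR-370-3p: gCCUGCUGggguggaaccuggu
mmu-miR-134-5p: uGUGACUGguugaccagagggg
mmu-miR-410-3p: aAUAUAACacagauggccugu

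Of 113 mature names in the domain, 11, from those 6 hairpins, are complementary to the Rtl1 transcript of 6358 bases over their whole length, and all 11 sites lie in its coding sequence. In the mouse, microRNAs antisense to Rtl1 are known to direct cleavage of its messenger RNA. The deposited tables also list 67 microRNA genes and 23 small nucleolar RNA genes within the domain, and 65 and 23 of them had 0 counts in every library.

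Outside the members, little of the domain was covered. Of 110 other annotated genes in it, 9 had any count and 1 could be tested. That gene, the processed pseudogene Gm3379, had 23.63 and 3.85 counts with the fusion against 13.71 (parental) and 5.82 (empty vector), and a log2 fold change of 0.38 (SE 0.89, adjusted p = 0.871, edgeR). Dio3os, transcribed away from the Dio3 promoter, had 4 and 6 counts with the fusion against 1 and 2. Gm34081, a noncoding gene on the minus strand between Dlk1 and Meg3, had 1 and 2 counts against 8 and 6. These genes had the highest summed counts of the list. B830012L14Rik, a noncoding gene between Rian and Mirg, followed with 1.46 and 4 counts against 4.3 and 3, so its groups overlapped.

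Genes on either side of the domain were then examined within 1 Mb. On the Dlk1 side, 0 of 10 tested genes passed with edgeR (0 at an unadjusted p under 0.05, 0 with DESeq2), with a median log2 fold change of 0.06. On the Dio3 side, 0 of 15 passed with edgeR (2 at an unadjusted p under 0.05, 2 with DESeq2), with a median of -0.02. Limma on TPM called 0 on both sides. Over all tested genes 3.42% passed with edgeR, so few or no calls would be usual in lists this short. DESeq2 called more, 1363 genes in all. Yy1, a zinc finger factor, stood at 134 and 119 CPM with the fusion against 125 (parental) and 118 CPM (empty vector), and Wars, the tryptophanyl-tRNA synthetase gene, at 127 and 99.2 CPM against 111 and 93.2 CPM. On the other side Hsp90aa1, a heat shock chaperone, stood at 4450 and 4060 CPM against 5070 and 4950 CPM, and Dync1h1, the dynein heavy chain, at 435 and 528 CPM against 586 and 667 CPM. Amn, singled out only after seeing its values, had the highest fold change there (log2 2.90, adjusted p = 0.0738, edgeR). Over the 627 tested genes of chromosome 12 outside the domain, 16 were higher and 1 lower. Over all tested genes, 2.83% were higher and 0.581% lower. The median log2 fold change of those 627 genes was 0.03, against 0.0 over all genes.

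**Figure D4:**
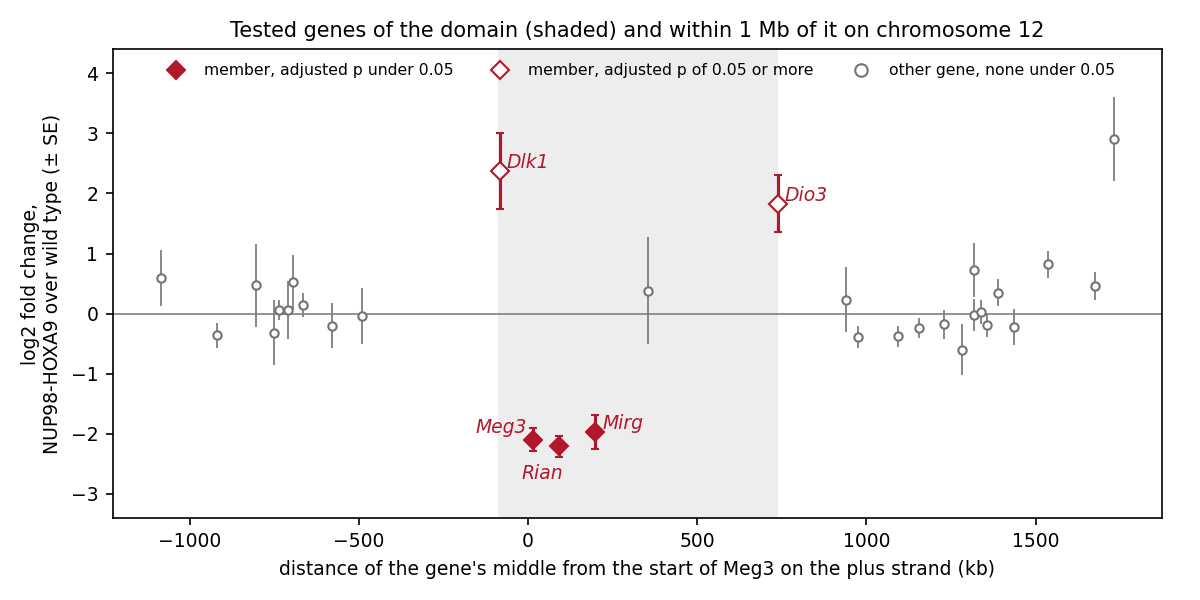
log2 fold change (± SE) of every tested gene of the domain (shaded, red diamonds for members) and within 1 Mb of it (grey circles), by distance in kb of the middle of the gene from the Meg3 start; filled symbols have an adjusted p under 0.05. Meg3, Rian and Mirg are the filled symbols, at -2.10, -2.21 and -1.97; Dlk1 and Dio3 at the ends are open, at 2.37 and 1.83.

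Profiles most like those of the members were sought among 12966 genes outside the domain. The distance was the root mean square of differences in log2 of CPM plus 0.5, centred per gene, over the 4 libraries. Meg3 and Rian were 0.0591 log2 units apart. No candidate was nearer to Meg3 than Rian, and 2 were nearer than Mirg. Seen from Rian, 1 candidate was nearer than Meg3 and 4 were nearer than Mirg. Seen from Mirg, 1 was nearer than Meg3 and 2 were nearer than Rian. The nearest to Meg3 were Napsa (distance 0.0849), an aspartic protease gene, Enox1 (0.0878) and Nnt (0.144), the mitochondrial transhydrogenase gene. Napsa (0.0583), Ccdc141 (0.137) and Enox1 (0.145) were nearest to Rian, and Enox1 (0.057), Nnt (0.174) and Napsa (0.196) to Mirg. Enox1 stood at 22.6 and 17.3 CPM with the fusion against 73.6 (parental) and 84.4 CPM (empty vector). Napsa, Enox1, Nnt and Ccdc141 all passed the test as lower, with log2 fold changes from -2.50 to -1.98. This largely follows from picking them by likeness to members called lower in the same libraries, and is no separate result. Nearest to Dlk1 were Ptprb (0.102), a receptor phosphatase gene of endothelium, Hoxc9 (0.167, not tested) and Meis2 (0.171), a HOX cofactor gene; Ptprb and Meis2 did not pass. Meis2 stood at 12.8 and 4.78 CPM with the fusion against 2.18 and 1.38 CPM. Nearest to Dio3 were B4galnt1 (0.0313), Fndc3b (0.0349) and Htra1 (0.0401), of which Fndc3b and Htra1 passed as higher. Their direction too was set by picking them in the same libraries. The added 0.5 CPM shrinks the differences of genes at low levels. Ptprb, at 0.102 from Dlk1, had a log2 fold change of 3.50 against 2.37 for Dlk1, and B4galnt1 had 1.45 against 1.83 for Dio3. With 4 libraries, such nearness says only that levels ran alike on this scale.

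Markers of other cell types were read beside these results. All 10 endoderm markers passed with edgeR as higher (median log2 fold change 4.11), where 2.83% of tested genes were called higher. They summed to 744 and 755 CPM in the NUP98-HOXA9 libraries against 88.1 (parental) and 74.9 CPM (empty vector), and none was at 0 with the fusion. Col4a1 and Lama1, genes of basement membrane proteins, made up most of these sums. Single markers differed between the fusion libraries: Cubn, an endocytic receptor gene, had 7.26 CPM in replicate 1 and 82.1 CPM in replicate 2, and Dab2, an endocytic adaptor gene, had 34.2 and 62.1 CPM. The 10 fibroblast markers summed to 92.2 and 91.4 CPM against 46.4 and 32.5 CPM, and Pdgfrb alone passed, as higher. Prrx1, Twist2, Lum, Postn and Dcn were under 1 CPM in every library. Trophectoderm markers summed to 311 and 197 CPM against 221 and 115 CPM, and 0 of 8 tested passed with edgeR. Neural ectoderm markers summed to 119 and 130 CPM against 155 and 140 CPM, mostly from Tubb3. The only 1 of them to pass, Sox1, rose, with 6.16 and 4.05 CPM against 0.988 and 1.06 CPM (log2 2.31, adjusted p = 0.0468, edgeR). Pax6 (log2 -2.08, adjusted p = 0.16, edgeR) and Nes (log2 -1.33, adjusted p = 0.129, edgeR) went the other way without passing. The median of the 4 tested neural ectoderm markers was -0.66, and DESeq2 called 3. Mesoderm markers summed to 5.76 and 5.56 CPM against 11.3 and 9.96 CPM, and 0 of 4 tested passed with edgeR. The part of such cells in the levels of the domain was not tested.

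Imprinted genes elsewhere in the genome did not share one direction. Of 47 tested of 54, 3 passed with edgeR (16 at an unadjusted p under 0.05, 6 with DESeq2, 2 with limma on TPM). Over all tested genes, 3.42% passed with edgeR. DESeq2 called 1363 genes in all, and limma on TPM 224 or 201. The share of all genes under the unadjusted threshold is not given, so the 16 cannot be read as an excess. Cdkn1c and Igf2 rose and Nnat fell, and the median log2 fold change of the list was 0.0. Cdkn1c, a brake on the cell cycle expressed from the maternal chromosome, stood at 116 and 98.4 CPM with the fusion against 25 (parental) and 30.3 CPM (empty vector) (log2 1.95, SE 0.21, adjusted p = 0.00883, edgeR), and its call was lost against the empty vector alone (adjusted p = 0.0509). Igf2, a growth factor expressed from the paternal chromosome, stood at 282 and 129 CPM against 20.5 and 11.2 CPM (log2 3.69, SE 0.46, adjusted p = 0.014, edgeR). Its call was lost without the parental (log2 4.19) or empty-vector library (log2 3.30), and it passed in 9 of the 14 alternatives. Nnat, a paternally expressed proteolipid gene, had 0 and 1 counts against 22 and 19, a ratio of 45.1 of wild type over fusion (95% exact binomial interval 7.66 to 1830); its call was lost without any 1 library (adjusted p from 0.055 to 0.177).

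Genes known to keep or erase imprints were measured in full. Of 26, Dnmt3b, a de novo DNA methyltransferase, was the only 1 called with edgeR (5 at an unadjusted p under 0.05, 3 called with DESeq2). It stood at 172 and 231 CPM with the fusion against 404 (parental) and 517 CPM (empty vector) (log2 -1.19, SE 0.22, adjusted p = 0.0395), and its call was lost without fusion replicate 1 (adjusted p = 0.176), replicate 2 (adjusted p = 0.0503) or the empty-vector library (adjusted p = 0.0571). Dnmt3b passed in 6 of the 14 alternatives. The median of the list was -0.14, and 3.42% of all tested genes were called with edgeR. With DESeq2, 1363 genes were called in all, and no share of all genes is given for the unadjusted threshold. Dnmt3l, the partner of those enzymes in germ cells, had 304 and 177 CPM against 335 and 463 CPM, and Zfp57, which reads methylated imprinting control regions, 641 and 462 CPM against 260 and 458 CPM. Tet2, which oxidises methylated cytosine, had 272 and 226 CPM against 74.1 and 144 CPM (adjusted p = 0.091, edgeR). Tet3 had 14.5 and 13.4 CPM against 6.71 and 5.99 CPM (adjusted p = 0.0849, edgeR). The largest fold change of the list was that of Dppa3 (log2 -2.86, SE 0.91, adjusted p = 0.143, edgeR). Dppa3 had 0.601 and 7.97 CPM against 38.8 and 23.7 CPM. Dnmt3l, Zfp57, Tet2, Tet3 and Dppa3 were named after their values were seen.

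Genes acting beside Dlk1 and Dio3 followed no common direction. Of 28 tested genes of the Notch pathway, 0 passed with edgeR (9 at an unadjusted p under 0.05, 3 with DESeq2, 0 with limma on TPM), with a median log2 fold change of 0.01. Over all tested genes, 3.42% passed with edgeR. With DESeq2, 1363 genes were called in all, and no share of all genes is given for the unadjusted threshold. Rbpj, the DNA-binding factor of the pathway, stood at 489 and 425 CPM with the fusion against 325 (parental) and 319 CPM (empty vector), and the receptor gene Notch3 at 131 and 159 CPM against 101 and 226 CPM. Of 15 tested genes of thyroid hormone signalling and supply, Trh, the thyrotropin-releasing hormone gene, was the only 1 called lower, and the median was 0.13. Trh stood at 20.8 and 56 CPM against 952 and 475 CPM (log2 -4.21, SE 0.55, adjusted p = 0.0158, edgeR). The call of Trh was lost without the parental (log2 -3.65) or empty-vector library (log2 -4.66), and it passed in 9 of the 14 alternatives.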

How the data were processed

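Messenger RNA libraries were made with a stranded kit that selects polyadenylated RNA, per the labels' protocols. The authors deposited expected counts, TPM and FPKM (the last not used) and transcript lengths per gene, per the file headers, in RSEM's table layout. The submitters' processing notes list STAR 2.7.10a, RSEM 1.3.3, DESeq2 1.36.0 and the build GRCm38/mm10; the release of the annotation and the strand setting are not given in the sources. Of 55401 identifiers, 99.5% were matched to GENCODE vM21.

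After rounding, expected counts went into edgeR 4.0.16 (R 4.3.3): TMM scaling, filterByExpr at a minimum count of 10, a robust quasi-likelihood fit of 2 NUP98-HOXA9 against 2 wild-type libraries (2 residual degrees of freedom, median prior 5.04), and Benjamini-Hochberg adjustment over 16511 genes at 0.05. The SE is the absolute log2 fold change over the square root of the F statistic. Intervals cover counting error only. Alternatives used other scalings and filters, DESeq2 1.42.0, limma 3.58.1 on log2 of TPM plus 1 or 0.1 (mean TPM of at least 0.5), each control alone and each library left out. Members and lists were chosen with earlier results of these data known. Named genes were the members, the 3 nearest profiles of each, and from each list the genes past the threshold (at most 4) or, with none, the 2 of highest mean CPM. A gene past the threshold in the thyroid hormone list is not reported here. Sequences are from RefSeq tables; tables and plots used python 3.11.15, pandas 2.3.3 and matplotlib 3.10.9.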

Additional observations from a re-analysis of the deposited data

How the results depend on the processing

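Meg3 and Rian kept their direction and stayed past the threshold under all 14 alternatives, with log2 fold changes from -2.22 to -1.92 and from -2.32 to -2.09. Mirg kept its direction in all 14 and missed the threshold in 4: -2.12 against the empty vector alone, -1.81 against the parental library alone, and without either fusion replicate; leaving out 1 library moved it between -2.25 and -1.74. Dlk1 was past the threshold with DESeq2 (2.36), with no filter (2.35) and without fusion replicate 2, and ran from 1.14 to 3.03 with 1 library left out. Dio3 passed with no filter (1.80) and ran from 1.64 to 2.01 with 1 library left out. Over all 14 alternatives it ran from 1.01, with limma on TPM plus 1, to 2.02. With no filter 5 members passed; leaving out 1 library gave 2 to 3.

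The count of genes called, 564, was 1363 with DESeq2, 1946 with no filter, 224 and 201 with limma on TPM plus 1 and plus 0.1, 82 against the empty vector alone, 104 against the parental library alone, and 163 to 552 with 1 library left out. Over the alternatives, calls ran from 0 to 9 among other imprinted genes, from 0 to 4 among genes that keep imprints, from 0 to 5 in the Notch pathway, from 0 to 3 in thyroid hormone handling and from 0 to 2 among neighbours on the Dio3 side. The cause of these moves was not tested. No paired analysis was possible because the wild-type labels carry no replicate number. Depth limits Rtl1, with 11 counts in all, and the minor transcripts of the domain.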

Other observations

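The lengths that RSEM weights by transcript abundance moved little for the abundant noncoding members. The effective length of Meg3 was 1313.34 and 1276.71 bases in the NUP98-HOXA9 libraries, against 1330.52 (parental) and 1377.27 bases (empty vector). Rian lay at 1677.69 and 1628.39 bases, against 1631.75 and 1668.9 bases. Mirg lay at 730.7 and 818.46 bases, against 697.56 and 736.26 bases, and Dio3 at 1651.48 and 1832.01 bases, against 1579.59 and 1530.97 bases. A longer effective length lowers TPM relative to CPM, and the use of single transcripts was not tested.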
